A study of Homo sapiens with 4 samples.

Results

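Expression of the ID genes, of the activin subunit gene INHBA and of BMP4, with the feedback genes SMAD6, SMAD7, FST and BAMBI, was read on 4 Affymetrix U133 Plus 2 arrays. These 10 genes were taken as a fixed list, chosen with earlier results of these data known. All 22 probe sets annotated with exactly 1 of their symbols were used, out of 54675 on the array. MDA-MB-231, the source of the RNA, is a triple-negative human breast carcinoma line with mesenchymal features. Each of the 4 groups was 1 culture on 1 array: cells stably transduced with the control vector pLVTH (shRNA control), cells stably transduced with a short hairpin RNA against ZEB2 (shRNA ZEB2), cells transfected with 20 nM siRNA against luciferase (siRNA control), and cells transfected with 20 nM of an siRNA pool against ZEB2 (siRNA ZEB2). Transfection lasted 24 hours before a wash, harvest followed 48 hours later, and 100 ng of RNA was labelled, whereas the stable lines were labelled from 2 microg. The knockdown method, the line and the labelling input therefore cannot be told apart between the 2 methods. Whether each stable line came from 1 clone was not given in the sources used here. No group had a replicate, so no difference within a pair has an error or a test.

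Bone morphogenetic proteins (BMPs), activins and TGF-beta are related secreted ligands. They signal through paired type I and type II receptor kinases, which phosphorylate SMAD1, SMAD5 and SMAD9 on the BMP side and SMAD2 and SMAD3 on the activin and TGF-beta side. ID genes are direct targets of the BMP SMADs, and ID proteins hold basic helix-loop-helix factors away from DNA. SMAD6 and SMAD7 are inhibitory SMADs, BAMBI is a pseudoreceptor without kinase activity, and follistatin, the product of FST, binds and blocks activin. ZEB2 is a zinc-finger repressor that binds activated SMADs and DNA with the core sequence CACCT.

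ZEB2 was lower on both arrays labelled as knockdowns, with log2 differences of -2.60 (shRNA ZEB2 minus shRNA control, the stable pair) and -3.05 (siRNA ZEB2 minus siRNA control, the transient pair) in its brightest probe set. The arrays were otherwise unlike each other by method. Of 15082 genes kept by a filter on dim genes (highest value at or above 4.77), 15.8% differed at least 2-fold between the 2 controls, against 4.47% in the stable pair and 0.172% in the transient pair. Of the markers of this line, 5 of 5 expected high (VIM, CD44, AXL, CAV1 and MSN) read at least 12.1 on every array. Of 7 markers expected low, PGR and FOXA1 lay under the filter level on every array, while ESR1, ERBB2, GATA3 and KRT8 lay above it. CDH1 lay above it on the siRNA arrays only, with the siRNA control 3.83 above the shRNA control. GATA3 was 1.08 higher in the siRNA control. These were the 2 of 5 kept markers expected low that were at 2-fold between the controls, and their part in the results was not tested. Of 8 markers of other cell types, only PTPRC and ALB stayed below 4.77 throughout, and the other 6 were kept. CD3E, CD14, PECAM1, VWF and DCN exceeded that level on all 4 arrays, and COL1A2 on the shRNA arrays only. The highest value among the 8 was 6.41 on the shRNA control, 5.72 on shRNA ZEB2, 7.30 on the siRNA control and 6.98 on siRNA ZEB2. The mean of the 8 was 5.10 on the shRNA control, 4.85 on shRNA ZEB2, 5.20 on the siRNA control and 5.20 on siRNA ZEB2. CD14 was the only one of them at 2-fold in either pair or between the controls, with the siRNA control 2.08 above the shRNA control, and its part in the results was not tested.

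ID1 and ID3 stood highest on the shRNA control and lowest on the siRNA arrays, whereas INHBA and FST stood the other way round. In the stable pair, shRNA ZEB2 read lower than its control for ID1, ID3 and BAMBI and higher for INHBA and FST, each by more than 2-fold. In the transient pair no member reached 2-fold, and ID2 was the only one past 1.5-fold in its brightest probe set, against 2.2% of all kept genes. Thus 5 of the 10 members were at 2-fold in the stable pair, 2 higher and 3 lower, where the shares over all kept genes were 2.39% higher and 2.08% lower. In the transient pair 0 of 10 were at 2-fold, against 0.172% of all kept genes. Between the controls 6 of 10 were, 4 higher and 2 lower in the siRNA control, against 10.8% and 4.99% of all kept genes, 15.8% together. As the 10 genes were chosen with earlier results of these data known, these counts describe the list and do not test it. The stable pair and the comparison of the controls both use the shRNA control array, so their values are given side by side and are not independent. Cells were measured in bulk, so less RNA per cell and fewer cells expressing a gene cannot be told apart.

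**Figure D1:**
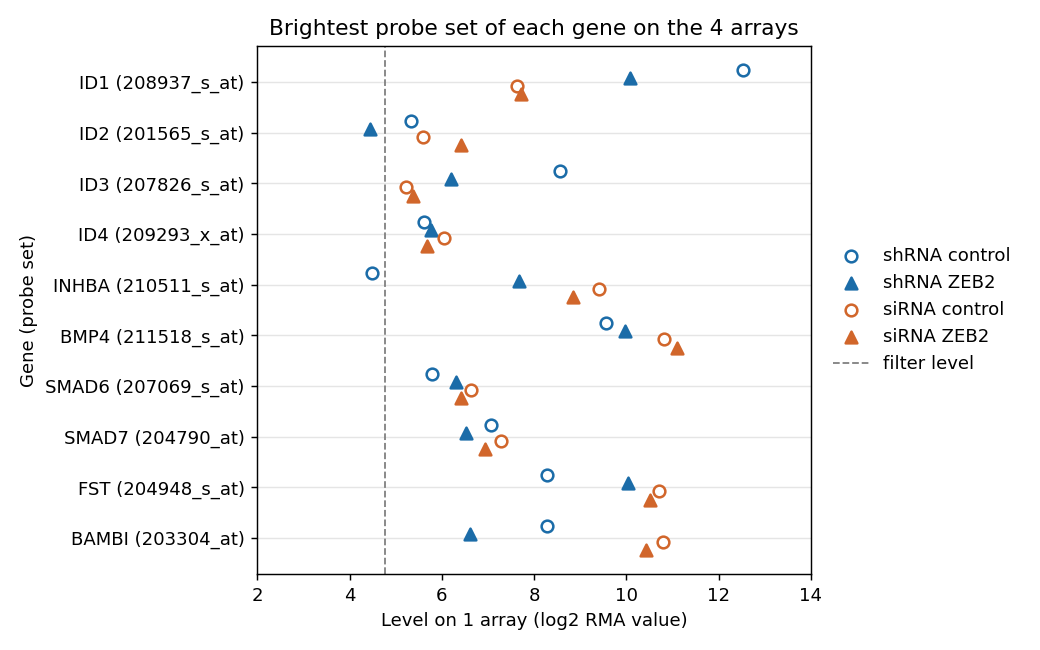
Level of the brightest probe set of each of the 10 genes, as the log2 RMA value (horizontal axis), on each of the 4 arrays (1 point per array; circles are controls, triangles ZEB2 knockdowns, blue the shRNA arrays, orange the siRNA arrays). The dashed line is the filter level of 4.77; ID1 runs from 12.52 on the shRNA control down to 7.63 on the siRNA control, and INHBA from 4.48 up to 9.40.

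The 250 bases before the annotated start are shown for the 5 members at 2-fold in the stable pair and for ID2, which goes opposite ways in the pairs, because the knocked-down factor recognises CACCT. The sequences are from RefSeq (GRCh38.p14), 5′ to 3′ on the strand of the gene, and all 10 members matched a promoter entry by symbol. Capitals mark CACCT on either strand, which reads AGGTG on the other.
ID1, chr20:31605039-31605288, plus strand: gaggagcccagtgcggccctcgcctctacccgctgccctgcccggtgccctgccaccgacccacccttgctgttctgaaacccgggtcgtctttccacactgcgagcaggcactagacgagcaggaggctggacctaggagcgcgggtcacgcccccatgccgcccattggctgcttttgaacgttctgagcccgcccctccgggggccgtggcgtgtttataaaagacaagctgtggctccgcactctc
ID3, chr1:23559502-23559751, minus strand: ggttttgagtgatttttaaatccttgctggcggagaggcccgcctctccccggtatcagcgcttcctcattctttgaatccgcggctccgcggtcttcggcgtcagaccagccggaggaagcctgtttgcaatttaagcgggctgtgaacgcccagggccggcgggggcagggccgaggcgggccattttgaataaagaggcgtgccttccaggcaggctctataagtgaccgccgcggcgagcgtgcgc
ID2, chr2:8681806-8682055, plus strand: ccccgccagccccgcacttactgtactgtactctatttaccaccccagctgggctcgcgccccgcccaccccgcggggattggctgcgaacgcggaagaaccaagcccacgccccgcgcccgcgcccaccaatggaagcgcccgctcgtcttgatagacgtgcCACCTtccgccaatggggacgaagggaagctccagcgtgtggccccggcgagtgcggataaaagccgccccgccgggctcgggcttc
INHBA, chr7:41703091-41703340, minus strand: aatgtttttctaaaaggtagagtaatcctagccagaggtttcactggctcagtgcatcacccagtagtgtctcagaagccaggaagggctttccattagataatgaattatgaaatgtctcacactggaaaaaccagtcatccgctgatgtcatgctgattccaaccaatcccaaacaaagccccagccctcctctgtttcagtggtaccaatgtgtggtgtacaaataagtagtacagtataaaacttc
FST, chr5:53480379-53480628, plus strand: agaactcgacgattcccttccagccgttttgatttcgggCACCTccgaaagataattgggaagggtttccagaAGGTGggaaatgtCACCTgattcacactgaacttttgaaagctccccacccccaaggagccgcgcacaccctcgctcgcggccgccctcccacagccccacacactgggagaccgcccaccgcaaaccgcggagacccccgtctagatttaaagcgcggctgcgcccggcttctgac
BAMBI, chr10:28677271-28677520, plus strand: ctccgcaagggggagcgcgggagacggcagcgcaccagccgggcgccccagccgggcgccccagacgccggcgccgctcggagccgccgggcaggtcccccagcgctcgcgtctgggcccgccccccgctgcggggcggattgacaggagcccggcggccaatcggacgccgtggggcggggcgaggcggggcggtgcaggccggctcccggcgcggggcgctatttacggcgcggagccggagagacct
CACCT was found 3 times in the FST window, beginning 211, 177 and 164 bases before the start, and once in the ID2 window, 87 bases before it. The ID1, ID3, INHBA and BAMBI windows held none. Over the 35116 windows of the same length in the table, 45.4% held at least 1 match, and the first window listed for the 10 members held one in 4. Another 2 motifs associated with SMAD proteins, CAGAC and the GC-rich GGCGCC, were also searched on both strands. CAGAC was in the first window of 5 members and in 38.0% of all windows, and GGCGCC in the first window of 2 members and in 16.4% of all windows. These matches describe the letters of the windows alone.

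The ID genes were taken first, as targets of BMP signalling. ID1, a classic early target of BMP signalling, read 12.52 on the shRNA control, 10.08 on shRNA ZEB2, 7.63 on the siRNA control and 7.71 on siRNA ZEB2. The stable knockdown was thus 5.43-fold below its control, with a log2 difference of -2.44, and 17 of the 15082 genes had a lower difference. In the transient pair the difference was 0.08. The siRNA control lay 29.6-fold below the shRNA control, a log2 difference of -4.89, and 0 of the 15082 genes had a lower one. All 4 values came from 1 probe set, the only one of ID1 with a single symbol, and they lay well above the filter level.

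ID3 read 8.55, 6.21, 5.21 and 5.37 on the same arrays in the same order. The stable knockdown was 5.09-fold lower than its control (-2.35 on the log2 scale), and the siRNA control 10.1-fold lower than the shRNA control (-3.34). The transient pair differed by 0.16. ID1 and ID3 had the same order of arrays. For both, shRNA ZEB2 lay between its own control and the siRNA arrays, which is also the position of 38.8% of all kept genes and of 75.4% of those at 2-fold between the controls. Of the 10 members 6 had it, namely ID1, ID3, INHBA, BMP4, SMAD6 and FST. Set against the siRNA control instead, a choice made after the values were seen, shRNA ZEB2 was higher by 2.45 for ID1 and by 0.99 for ID3. In that comparison 11.3% of all kept genes and 4 of the 10 members were at 2-fold. The direction for both genes therefore depended on which control was used, as it must where shRNA ZEB2 lies between the controls.

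ID2 behaved otherwise. Its brighter probe set read 5.33 on the shRNA control, 4.44 on shRNA ZEB2, 5.59 on the siRNA control and 6.41 on siRNA ZEB2, so the highest and the lowest value were both knockdowns. The difference was -0.89 in the stable pair and 0.82 in the transient pair, and in the latter 17 of 15082 genes had a higher difference. Only 0.404% of all kept genes were past 1.5-fold in opposite directions in the pairs. The dimmer ID2 probe set, which can cross-hybridise, differed by -0.59 and 0.85 but stayed under the filter level on every array. The controls differed by 0.27 in the brighter and by -0.08 in the dimmer probe set.

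ID4 was dim. Of its 5 probe sets, 4 stayed under the filter level on every array. The brightest, which can cross-hybridise, read 5.61, 5.76, 6.04 and 5.69, and its differences were 0.15, -0.35 and 0.43 in the stable pair, the transient pair and between the controls. Among the dim probe sets the shRNA differences ran from -0.51 to 1.44, so the probe sets of ID4 disagreed in sign and the level of this gene was not resolved here.

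By the distance between profiles centred over the 4 arrays, the kept genes most like ID1 were AKAP12, a scaffold of protein kinase A (distance 0.88 in log2 units), XK (0.974) and NAA15, a subunit of the N-terminal acetyltransferase (1.02). Nearest to ID3 were TNFRSF11A, the receptor of RANK ligand (0.335), ADIRF (0.445) and CHSY3, a chondroitin synthase (0.465). ID2 was closest to the glycosyltransferase gene MGAT4A (0.279), the hyaluronan-degrading protein gene CEMIP (0.306) and PRDM11 (0.334). ID1 and ID3 were 1.55 apart, which placed ID3 at rank 15 among the genes nearest to ID1 and ID1 at rank 222 among those nearest to ID3. With 4 arrays and 15082 genes such neighbours are a description.

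The ligand genes came next. INHBA encodes the beta A subunit, 2 of which form activin A. Its brightest probe set read 4.48 on the shRNA control, 7.67 on shRNA ZEB2, 9.40 on the siRNA control and 8.85 on siRNA ZEB2. The shRNA control was the only array under the filter level, and the siRNA arrays were the highest. The stable knockdown was 9.12-fold higher than its control (3.19 on the log2 scale), and 21 genes had a higher difference. The siRNA control was 30.3-fold higher than the shRNA control (4.92).

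A second INHBA probe set of similar brightness read 3.54, 7.77, 9.83 and 9.13, with differences of 4.23 in the stable pair, -0.70 in the transient pair and 6.29 between the controls. The third and dimmest read 4.25, 4.35, 6.12 and 5.71, and differed by 0.10, -0.41 and 1.87. All 3 were higher on the siRNA arrays than on the stable lines. The stable knockdown stood out in the brighter pair alone, and in the transient pair all 3 were lower by between 0.41 and 0.70. As the shRNA control was under the filter level in all 3, the size of these differences depends on the dim end of the scale. Against the siRNA control, shRNA ZEB2 differed by -1.73, the opposite of its direction against the shRNA control.

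BMP4, a ligand that induces ID genes in many cells, read 9.56 on the shRNA control, 9.98 on shRNA ZEB2, 10.81 on the siRNA control and 11.10 on siRNA ZEB2. Its only probe set was bright on every array. Each knockdown was above its own control, by 0.42 and 0.29, short of 1.5-fold. The siRNA control lay above the shRNA control by 1.25, so BMP4 was highest on the arrays where ID1 and ID3 were lowest. Both siRNA arrays exceeded both stable lines.

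**Figure D2:**
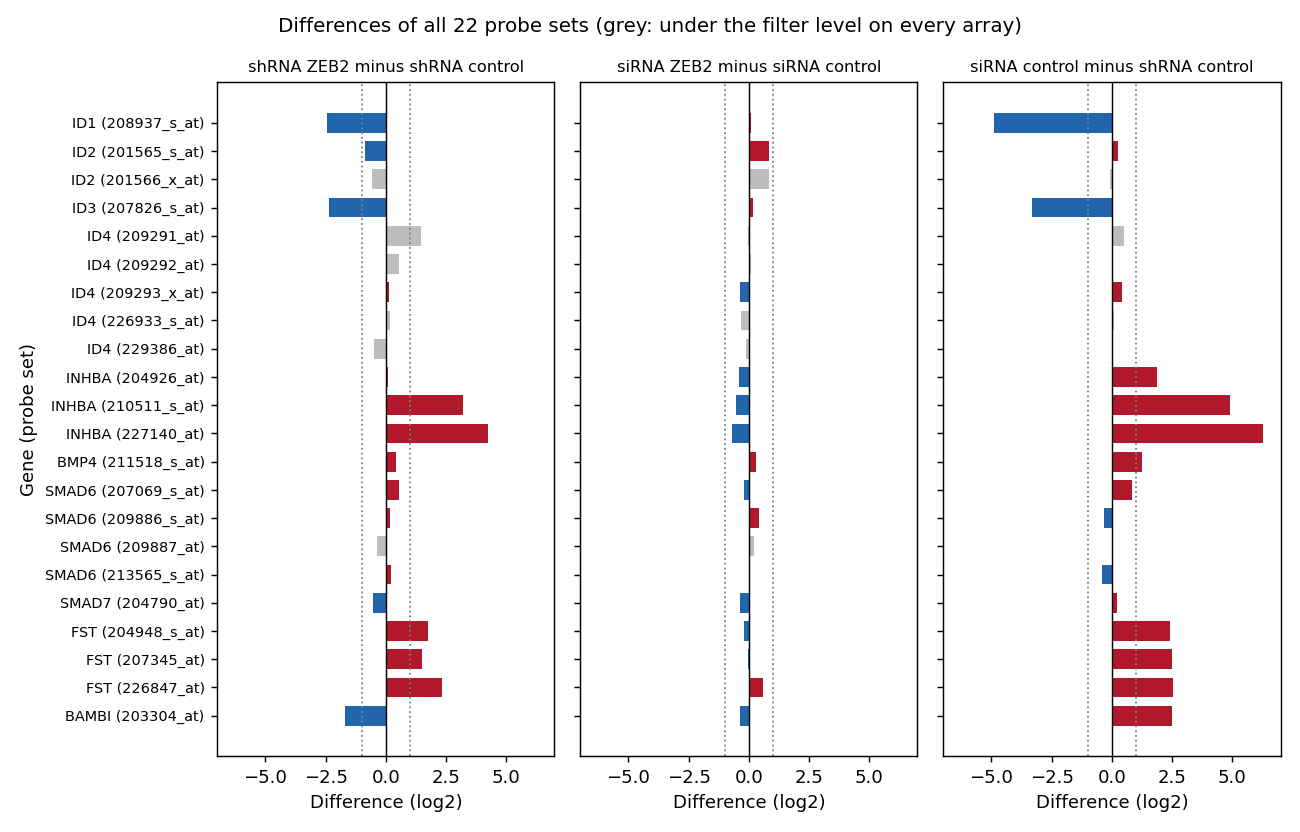
Log2 differences (horizontal axes) of all 22 probe sets for shRNA ZEB2 minus shRNA control, siRNA ZEB2 minus siRNA control, and siRNA control minus shRNA control. Red bars are higher, blue bars lower, grey bars belong to probe sets under the filter level on every array, and dotted lines mark 2-fold; every bar of the middle panel lies inside them, with ID2 the highest at 0.82 and 0.85.

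Of the extracellular and membrane antagonists, FST had the same order of arrays as INHBA. Its brightest probe set read 8.28 on the shRNA control, 10.03 on shRNA ZEB2, 10.70 on the siRNA control and 10.52 on siRNA ZEB2. The shRNA control was lowest and the other 3 arrays lay within 0.67 of each other. The stable knockdown was 3.38-fold above its control (1.76), and the siRNA control 5.37-fold above the shRNA control (2.42). The other FST probe sets gave 1.48 and 2.33 in the stable pair and 2.50 and 2.55 between the controls, so all 3 were past 2-fold in both. In the transient pair they split, at -0.19, -0.02 and 0.58, and the sign turned above 0 with the mean of the 3 and when probe sets ending in _s_at were left out. Against the siRNA control, shRNA ZEB2 differed by -0.67.

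BAMBI read 8.29 on the shRNA control, 6.61 on shRNA ZEB2, 10.79 on the siRNA control and 10.43 on siRNA ZEB2. The stable knockdown was the lowest of the 4, and the siRNA arrays were the highest. It was 3.20-fold below its control (-1.68), and 69 genes had a lower difference. The transient pair differed by -0.36, and the siRNA control was 5.65-fold above the shRNA control (2.50). BAMBI was the only member at 2-fold between the controls whose stable knockdown did not lie between its control and the siRNA arrays. Against the siRNA control, shRNA ZEB2 was lower still, at -4.18, so the direction was the same with either control.

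The inhibitory SMAD genes differed less. SMAD7, which blocks both BMP and TGF-beta receptors, read 7.07, 6.53, 7.29 and 6.93 on the 4 arrays in the order above. Both knockdowns lay below both controls, by 0.54 in the stable pair and 0.37 in the transient pair, each short of 1.5-fold. SMAD6, which acts mainly on the BMP side, read 5.78, 6.31, 6.63 and 6.43 in its brightest probe set. That probe set differed by 0.53, -0.20 and 0.85 in the stable pair, the transient pair and between the controls. The remaining 3 SMAD6 probe sets were dimmer and differed between the controls by -0.32, 0.02 and -0.40, in the transient pair by 0.42, 0.20 and -0.004, and in the stable pair by 0.19, -0.37 and 0.22. The direction of SMAD6 thus depended on the probe set in all 3 comparisons. In the stable pair, however, the only lower probe set (-0.37) was under the filter level on every array.

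**Figure D3:**
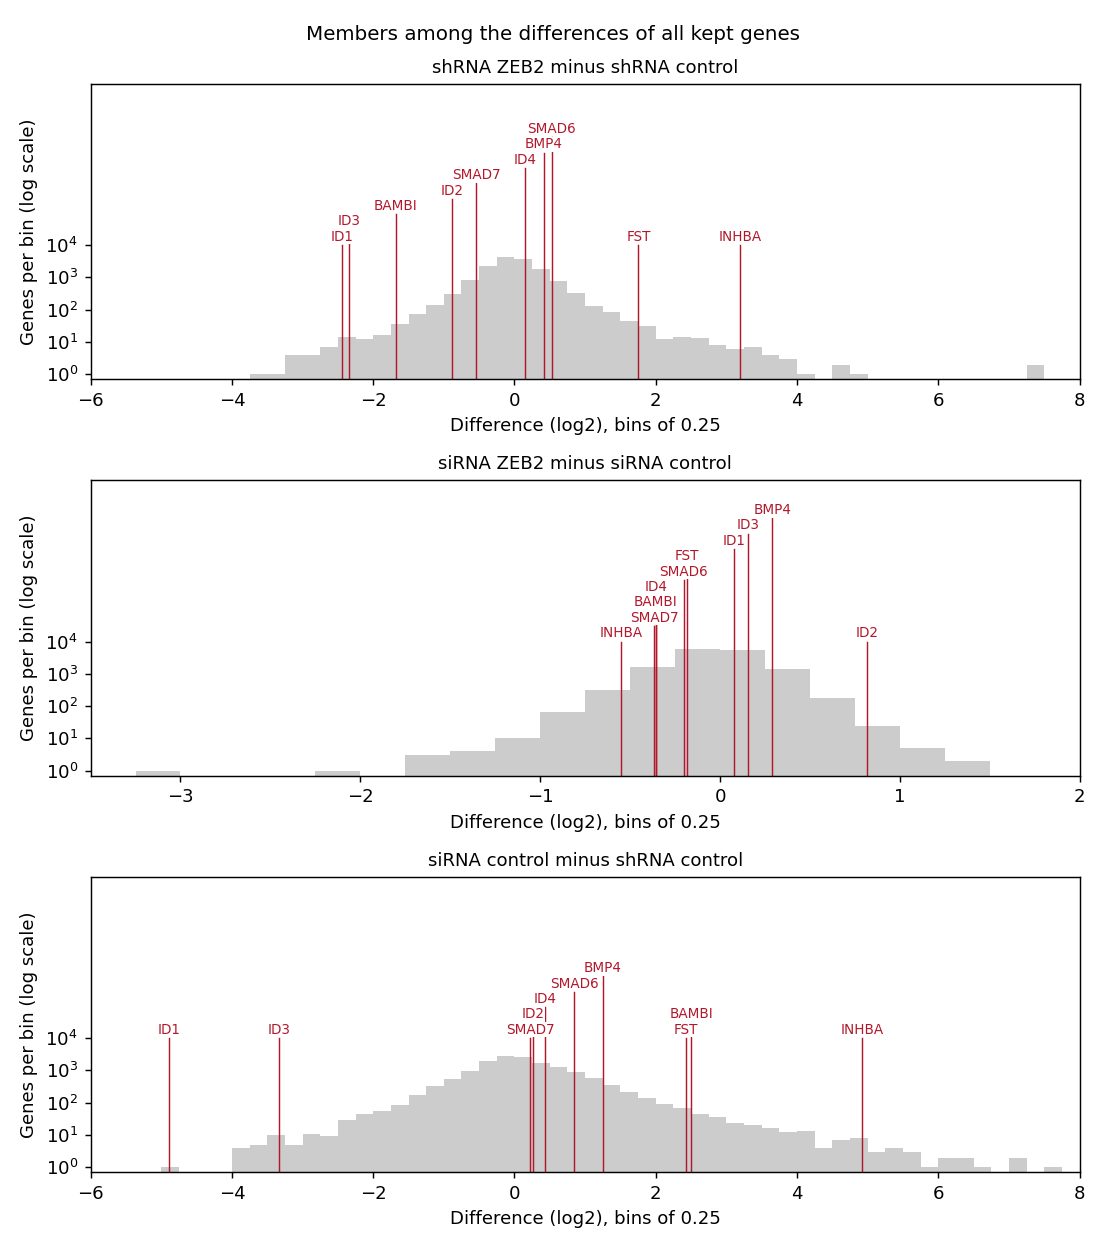
Differences of all 15082 kept genes in bins of 0.25 log2 units (grey bars, number of genes on a log axis), with the brightest probe set of each member as a red line whose height carries no value, for the stable pair, the transient pair (on its own narrower axis) and the controls. ID1 is at the far left between the controls, at -4.89, and INHBA far to the right, at 4.92, while in the transient pair all members except ID2 (0.82) lie between -0.55 and 0.29.

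The members went both ways in the 2 pairs. Their median difference was -0.198 in the stable pair, with 5 higher and 5 lower, and -0.194 in the transient pair, with 4 higher and 6 lower. Between the controls it was 0.637, with 8 higher and 2 lower. The medians over all kept genes were -0.0242, -0.0183 and 0.0558. The median size of the difference, regardless of sign, was 1.28 for the members and 0.225 for all kept genes in the stable pair. It was 0.322 and 0.137 in the transient pair, and 1.84 and 0.385 between the controls. All 10 members passed the filter, INHBA and ID2 on 3 arrays and the others on 4. INHBA and ID2 each had 1 stable line under the filter level.

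A common effect of both knockdowns was tested with limma over the 4 arrays, blocking on the method. This leaves 1 residual degree of freedom and takes the methods for replicates. Over all kept genes 0 passed after Benjamini-Hochberg adjustment in limma, and 384 (2.55%) had an unadjusted p under 0.05. SMAD7 was the only member among these, with a mean difference of -0.45 ± 0.16 (SE), an unadjusted p of 0.0485 and an adjusted p of 0.971 in limma, lower in 2 of 2 pairs. BAMBI had -1.02 ± 0.38 and an adjusted p of 0.971 in limma. BMP4 had 0.35 ± 0.16 and the same adjusted p in limma. ZEB2 itself, at -2.82 ± 0.18, did not pass either, with an adjusted p of 0.971 in limma. A difference between the 2 pairs, such as that of ID2, left no degrees of freedom and was not tested.

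Other genes of the pathway were read from 7 lists grouped by role, chosen with earlier results of these data known. They held 106 genes, of which 98 had a probe set with that symbol alone and 83 passed the filter. The stable pair had 4 of them higher and 6 lower by 2-fold or more, 12% of the 83. In the transient pair 0 of 83 were at 2-fold. Between the controls 12 were higher and 6 lower, 21.7% of the 83. The limma fit called 0 of the 83. The shares over all kept genes were the 4.47%, 0.172% and 15.8% given above.

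Among 13 ligands kept, INHBB, the beta B subunit of activin, read 4.98, 8.66, 7.15 and 6.94 on the shRNA control, shRNA ZEB2, siRNA control and siRNA ZEB2. It was therefore highest on the stable knockdown and lowest on the shRNA control, with a difference of 3.69 in the stable pair and -0.21 in the transient pair. GDF15, a distant relative of the TGF-beta family induced by stress, read 5.79, 7.48, 10.43 and 10.09 in its brightest probe set, which can cross-hybridise. It differed by 1.69, -0.34 and 4.65 in the stable pair, the transient pair and between the controls, while its 2 dimmer probe sets differed by 0.18 and 0.33 in the stable pair.

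Of the receptors, SMADs and co-regulators, BMPR1B, SMAD1 and SMAD9 were more than 2-fold lower in the stable knockdown than in its control. ACVR2B was more than 2-fold higher. BMPR1B, a type I BMP receptor, read 7.22, 4.64, 5.55 and 5.79, highest on the shRNA control as ID1 and ID3 were. It differed by -2.59 in the stable pair, 0.25 in the transient pair and -1.67 between the controls, and a second probe set gave -2.02 in the stable pair. SMAD1 read 8.37, 7.12, 7.61 and 7.79, with -1.25 in the stable pair and 0.18 in the transient pair, and a second probe set gave -0.94 in the former. SMAD9 read 7.64, 6.44, 4.05 and 4.03, with -1.20 in the stable pair and -3.59 between the controls, in 1 of its 2 probe sets. Both siRNA arrays were under the filter level there, so the size of -3.59 depends on the dim end of the scale. The other SMAD9 probe set was dim and gave 0.27 in the stable pair. ACVR2B, a type II receptor of activin and BMPs, read 6.60, 7.95, 7.15 and 6.80 and was higher by 1.36 in the stable pair in 1 of 3 probe sets, the others giving 0.23 and 0.40. Of 13 receptors kept, BMPR1B and ACVR2B were at 2-fold in the stable pair, and of 12 SMADs and co-regulators SMAD1 and SMAD9. Counting differences of any size in that pair, 7 receptors were higher and 6 lower. Of the SMADs and co-regulators, 4 were higher and 8 lower.

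**Figure D4:**
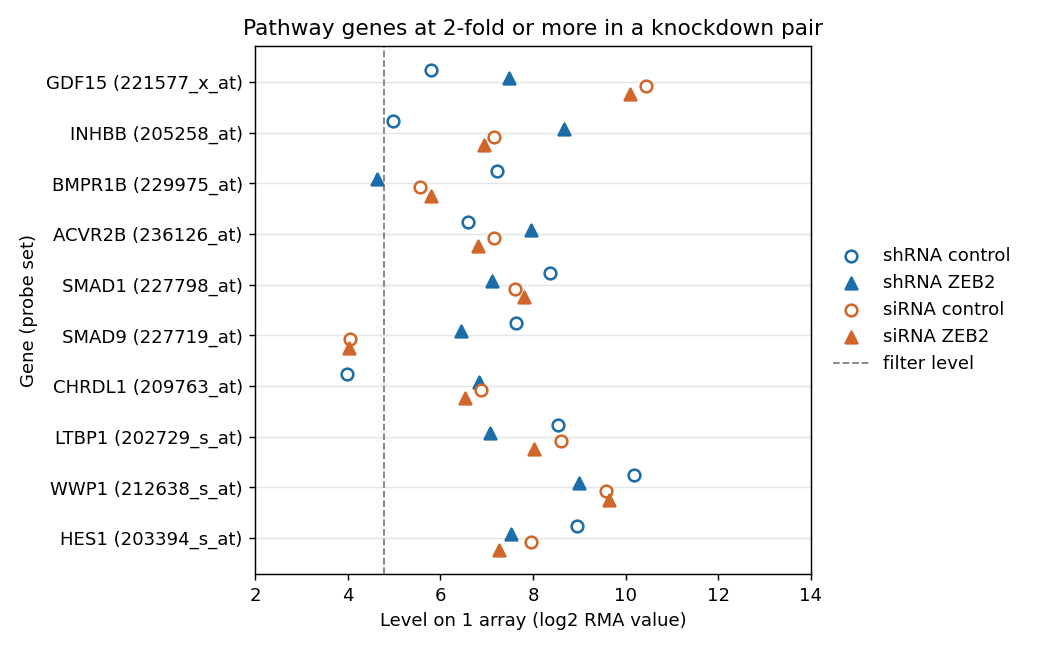
Level of the brightest probe set (log2 RMA value, horizontal axis) of the 10 further pathway genes at 2-fold or more in the stable pair, on each of the 4 arrays, with the same symbols as for the members. BMPR1B, SMAD1, SMAD9, WWP1 and HES1 are highest on the shRNA control, and INHBB, CHRDL1, GDF15 and ACVR2B are lowest there.

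Of 11 further extracellular antagonists and binding proteins kept, CHRDL1, a chordin-like BMP antagonist, read 3.98, 6.84, 6.87 and 6.54, low on the shRNA control alone. It differed by 2.87 in the stable pair and by 2.89 between the controls. LTBP1, which binds latent TGF-beta, read 8.54, 7.06, 8.61 and 8.01 and differed by -1.48 in the stable pair, -0.59 in the transient pair and 0.07 between the controls. Its other probe set gave -1.41, -0.12 and -1.44, so the probe sets disagreed between the controls. Of 12 intracellular negative regulators, the ubiquitin ligase gene WWP1 read 10.18, 8.98, 9.58 and 9.65 and differed by -1.19 and 0.07 in the pairs, and its second probe set by -1.01 and 0.45. Of 18 other target genes, HES1, a basic helix-loop-helix repressor also driven by Notch, read 8.95, 7.52, 7.95 and 7.26, with both knockdowns below both controls in this probe set. It differed by -1.44 in the stable pair and -0.68 in the transient pair, and a second probe set gave -1.28 and -0.72, with shRNA ZEB2 above the siRNA control there. Of the partners of ID proteins, 4 of the 9 with a probe set were kept, and none of these 4 was at 2-fold in either pair or between the controls. TCF3, which encodes E12 and E47, differed by -0.45 and -0.09 in the brightest of its 14 probe sets. These disagreed in sign, running from -0.45 to 0.33 in the stable pair and from -0.19 to 0.20 in the transient pair. MYOD1 differed by -0.25 and -0.16.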

How the data were processed

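RNA of 4 MDA-MB-231 cultures was measured, 1 array per group, grouped by sample title. What the authors deposited is 1 log2 value for each probe set and array. Per the submitters' processing notes these come from RMA, run with the affy package, in versions not given in the sources used here. The method equalises the distributions of the arrays and compresses differences of dim probe sets. Array medians lay between 5.34 and 5.37, and 0 columns of other series were present. Precision is limited by the number of arrays.

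Of 54675 probe sets, 41097 carried 1 symbol in the platform annotation, 1801 several and 11777 none. The brightest such probe set by mean stood for a gene (19775 genes), and genes whose highest value reached the 40th percentile of all values, 4.77, were kept (15082 genes). Differences were taken as knockdown minus control and siRNA control minus shRNA control, with genes counted at 2-fold, or 1.5-fold and 3-fold. Limma 3.58.1 in R 4.3.3 (lmFit, eBayes with an intensity trend, 2-sided, method as a block) was fitted over all kept genes, with Benjamini-Hochberg adjustment at 0.05. The 1 residual degree of freedom of a gene is the gap between its differences in the stable and the transient pair. The error behind the p-values blends that gap with a variance trend over all kept genes, so it rests partly on other genes.

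The alternatives tried were averaging a gene's probe sets, leaving out probe sets ending in _x_at or _s_at, other filters, 3 other scalings and other limma settings. Every member and probe set was named, as were ZEB2, pathway genes at 2-fold in a pair (or the 2 with the largest mean size where a list had none), and the 3 genes nearest to ID1, ID2 and ID3. The members, lists and rules were chosen with earlier results of these data known. Motifs were counted in Python 3.11.15 (pandas 2.3.3), and figures drawn with matplotlib 3.10.9.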

Additional observations from a re-analysis of the deposited data

Results flagged for a closer look

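Members with any probe set past 1.5-fold in opposite directions in the 2 knockdown pairs, each pair being 1 array against 1, were ID2 and INHBA. Counting brightest probe sets only, ID2 alone was, beside 0.404% of all kept genes. The brighter ID2 probe set differed by -0.89 in the stable pair and 0.82 in the transient pair, with shRNA ZEB2 (4.44) under the filter level. The dimmer one, under that level on every array, differed by -0.59 and 0.85. One of the 3 INHBA probe sets, not the brightest, differed by 4.23 in the stable pair and -0.70 in the transient pair. The brightest differed by -0.55 in the transient pair, short of 1.5-fold. The difference between the pairs was not tested in any of these. Labelling input and method moved with the pairs, and their part was not tested.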

How the results depend on the processing

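With 1 array per group and 4 arrays, small differences are not resolved, and values under the filter level are compressed. The labels give no replicate numbers, so pairing rests on the method block of the limma fit alone. Under the 3 other scalings all 90 member differences moved by less than 0.235, the spread of the transient pair over genes. RMA had already equalised the arrays (medians between 5.34 and 5.37), so these scalings could change little. Filters cannot change a difference. Averaging probe sets or leaving some out can change only genes with several, and there 10 of 18 values moved by more, in INHBA, SMAD6 and FST. SMAD6 and FST changed sign in the transient pair. Leaving out probe sets ending in _x_at or _s_at left 4 members (INHBA, SMAD7, FST and BAMBI), of which 3 were at 2-fold in the stable pair and 3 between the controls, against 5 and 6, with medians of 0.893 and 2.52 in these. ID4 did not pass the filter with the mean of probe sets, and the members' median was then -0.543 in the stable pair, 0.104 in the transient pair and 0.223 between the controls. Nor did it pass with a filter at the 60th percentile (-0.543 in the stable pair). At 1.5-fold 1 member was counted in the transient pair. Against the siRNA control in place of the shRNA control, a setting added after the data were seen, the median for shRNA ZEB2 was -0.717. The sign turned for 7 of 10 members: ID1 (2.45), ID3 (0.99), INHBA (-1.73), FST (-0.669), BMP4 (-0.829), SMAD6 (-0.319) and ID4 (-0.28). For all of these except ID4, shRNA ZEB2 lay between its control and the siRNA arrays, as it did for 38.8% of all kept genes. The change of sign follows from that position and is not a separate check. In that comparison 4 members were at 2-fold. Limma called 0 genes under all 12 alternatives, with a smallest adjusted p between 0.305 and 1. Between 40 and 516 genes had an unadjusted limma p under 0.05, where 11604 to 19775 genes were fitted. With each probe set on its own it was 822 of 29214 probe sets.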

Other observations

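A probe set shared by ID2 and the pseudogene ID2B, left out because it carries both symbols, read 2.78 on the shRNA control, 2.71 on shRNA ZEB2, 3.15 on the siRNA control and 3.01 on siRNA ZEB2. All 4 values were under the filter level, with differences of -0.08 in the stable pair and -0.14 in the transient pair. In the windows of 250 bases before the start, BAMBI held 3 matches to GGCGCC, beginning 209, 196 and 181 bases before the start, where the mean over all windows was 0.201 matches, and its window had 81.2% G and C.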
